A study of Homo sapiens with 4 samples.

Results

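To examine chromatin accessibility at the genes that encode the SWI/SNF complexes and other regulators acting against polycomb, all ATAC-seq peaks within 33 chosen genes were collected. ATAC-seq inserts adapters into open DNA with a transposase, so that sequenced fragments pile up where chromatin is accessible. The genes were 26 subunits of SWI/SNF, the H3K27 demethylases KDM6A and KDM6B, the H3K4 methylases KMT2C and KMT2D, the acetyltransferases EP300 and CREBBP, and the H2A deubiquitinase BAP1. A peak belonged to a gene when it overlapped the gene body or the 10 kb on either side of it in the GENCODE 44 annotation of hg38. Peaks that overlapped by at least 1 bp were joined across libraries into regions, and 158 of the 80551 regions of the series fell in the windows of these 33 genes.

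All libraries came from HepG2, a human hepatocellular carcinoma line in culture, and each was made from 50000 cells. The control group held 2 untreated libraries, and the tazemetostat group held 2 libraries of cells given 5 µM tazemetostat for 48 h. Tazemetostat is an inhibitor of EZH2, the methyltransferase of polycomb repressive complex 2. Control replicates 1 and 2 had 17191428 and 23800380 mapped tags, and tazemetostat replicates 1 and 2 had 19844503 and 26564400. The labels do not say whether the replicates were separate cultures, so the p-values cover the spread between these libraries, which may be technical. Of the hepatocyte-type markers, APOA1, TTR and SERPINA1 had a promoter peak in all 4 libraries. ALB and AFP had none at the promoter in any library, with 8 and 7 regions elsewhere in their windows. PTPRC of blood, PECAM1 of endothelium and COL1A1 of fibroblasts had no promoter peak in any library.

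SWI/SNF complexes spend ATP to slide or evict nucleosomes, and they keep enhancers and promoters open. They exist as several assemblies that share the ATPase SMARCA2 or SMARCA4 and a common core. Canonical BAF carries ARID1A or ARID1B with a DPF subunit, PBAF carries ARID2, PBRM1, BRD7 and PHF10, and non-canonical BAF carries BRD9 with BICRA. SWI/SNF is the classical antagonist of polycomb, whose EZH2 subunit methylates lysine 27 of histone H3 (H3K27) at silenced genes. KDM6A and KDM6B remove that methylation, EP300 and CREBBP acetylate the same lysine, KMT2C and KMT2D methylate lysine 4 (H3K4) at enhancers, and BAP1 removes the ubiquitin that polycomb repressive complex 1 places on H2A.

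The sequences below show the kinds of places that the values turn on, from an open promoter to a repeat inside a gene. ACTL6A had the highest promoter of all members, and the bases shown are chr3:179562626-179562885, next to its start. ARID1A had a promoter peak under tazemetostat alone, at chr1:26695393-26695692, whereas BRD7 had none in any library at chr16:50368989-50369288. ARID1B is shown at chr6:157147501-157147800, in an intron at another annotated start, where limma called the only decrease among these genes. BICRA is shown at chr19:47660385-47660684, in an intron, and KDM6B at chr17:7844791-7844900, part of a region that overlaps exon 3, because peaks were called there under tazemetostat alone. All are from hg38, read 5′ to 3′ on the strand of the gene, which is the minus strand for BRD7 and the plus strand for the others. Capitals mark matches to the motifs named after the sequences.
ACTL6A promoter: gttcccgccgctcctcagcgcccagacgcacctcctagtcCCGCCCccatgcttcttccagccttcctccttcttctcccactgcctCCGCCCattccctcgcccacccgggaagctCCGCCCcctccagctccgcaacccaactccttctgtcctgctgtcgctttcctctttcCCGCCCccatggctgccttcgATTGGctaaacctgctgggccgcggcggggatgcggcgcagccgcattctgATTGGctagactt
ARID1A promoter: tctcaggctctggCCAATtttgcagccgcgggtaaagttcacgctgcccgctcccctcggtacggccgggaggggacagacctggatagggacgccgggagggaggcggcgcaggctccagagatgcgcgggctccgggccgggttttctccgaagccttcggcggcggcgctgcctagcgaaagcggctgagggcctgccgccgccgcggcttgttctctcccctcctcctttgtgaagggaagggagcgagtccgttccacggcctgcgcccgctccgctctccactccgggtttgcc
BRD7 promoter: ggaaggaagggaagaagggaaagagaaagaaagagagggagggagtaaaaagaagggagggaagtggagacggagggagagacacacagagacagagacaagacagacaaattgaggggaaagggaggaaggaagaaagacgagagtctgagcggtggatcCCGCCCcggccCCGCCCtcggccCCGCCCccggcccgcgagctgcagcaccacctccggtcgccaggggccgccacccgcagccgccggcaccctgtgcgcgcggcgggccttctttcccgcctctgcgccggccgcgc
ARID1B intronic region: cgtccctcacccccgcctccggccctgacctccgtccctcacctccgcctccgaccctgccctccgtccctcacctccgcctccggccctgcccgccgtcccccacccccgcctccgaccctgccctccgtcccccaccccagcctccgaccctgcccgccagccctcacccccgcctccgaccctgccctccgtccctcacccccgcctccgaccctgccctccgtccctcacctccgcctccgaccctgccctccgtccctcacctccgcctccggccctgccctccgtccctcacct
BICRA intronic region: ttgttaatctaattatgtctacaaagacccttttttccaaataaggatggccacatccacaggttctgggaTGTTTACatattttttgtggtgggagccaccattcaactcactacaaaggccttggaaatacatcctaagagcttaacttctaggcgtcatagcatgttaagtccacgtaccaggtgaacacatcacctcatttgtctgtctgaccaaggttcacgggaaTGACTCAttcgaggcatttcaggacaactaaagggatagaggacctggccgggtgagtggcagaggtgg
KDM6B region at exon 3: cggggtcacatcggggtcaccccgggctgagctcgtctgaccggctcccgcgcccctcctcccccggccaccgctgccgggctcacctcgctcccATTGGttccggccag

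The motifs were searched as letters on both strands, and no motif on the list contains another. They were GGGCGG (SP/KLF), CCGGAAGT (ETS), the NRF1 palindrome, CCAAT (NFY), TGACGTCA (CRE), TATAAA (the TATA box), CACGTG (E-box), AAGATGGC (YY1), TGANTCA (AP-1), CAAAGTNCA (HNF4) and TGTTTAC (FOXA). The ACTL6A stretch held 4 SP/KLF and 2 NFY matches, and the BRD7 stretch without a peak held 3 SP/KLF matches. SP/KLF letters occurred in 60.8% and NFY letters in 37.9% of the 20033 coding promoters taken as the 300 bases before the start. The BICRA stretch held 1 AP-1 and 1 FOXA match, letters found in 11.4% and 8.23% of the central 300 bases of 78220 regions. ARID1A and KDM6B each held 1 NFY match, and the ARID1B stretch held none of the motifs. The ARID1B stretch repeats itself: at a distance of 32 bases, 92.5% of its letters were equal. Measured in the same way over the central 300 bases of each of the 158 regions, this region reached 93.2%, at a distance of 64 bases. No other region was above 60%, and the median was 34.3%.

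More peaks were called in the windows of these genes upon tazemetostat treatment, in gene bodies and flanks as well as at promoters. Control replicates 1 and 2 had 67 and 79 peaks there, and tazemetostat replicates 1 and 2 had 123 and 112. The means were 73.0 ± 8.49 and 117.5 ± 7.78 (SD, n = 2 each), and the groups did not overlap. A two-sided exact permutation test returned p = 0.3333, and with 2 libraries per group no smaller value is possible. The difference of 44.5 peaks was 4.0 when every library was cut to the same number of peaks, and 2.0 when a fold of 8 over the surrounding 10 kb was required (exact permutation p = 0.6667). As a share of all peaks of a library, control windows took 0.256% and 0.227% and tazemetostat windows 0.222% and 0.207%, so that the treated shares were the lower ones (exact permutation p = 0.3333, two-sided). The normalised tag count, the tags of a peak per 10 M mapped tags, summed to 1075 and 1460 in the controls and to 2761 and 2298 under tazemetostat. The difference of these sums, 1262, was 84.5 at a required fold of 8 (exact permutation p = 0.6667). The summed peaks covered 27.4 and 37.5 kb in the controls and 58.9 and 53.0 kb under tazemetostat. Tag count per kb of peak went from 39.2 and 38.9 to 46.9 and 43.3, a smaller step than that of the sum (ratios of group means 1.16 and 2.00).

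**Figure D1:**
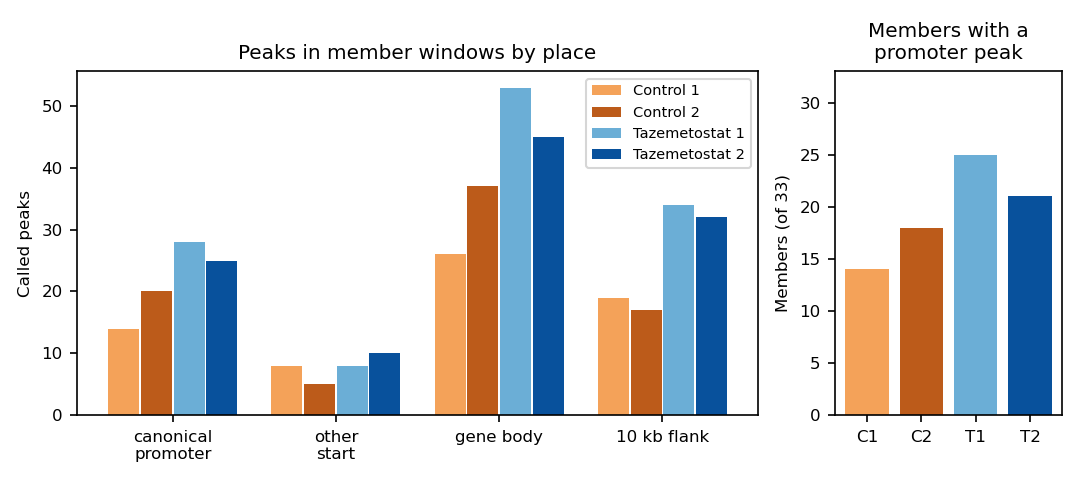
Called peaks in the windows of the 33 genes by place (left) and number of members with a peak at the canonical promoter (right), per library, where C1 and C2 are the controls and T1 and T2 the tazemetostat replicates. Bars start at 0. The gene body count went from 26 and 37 peaks to 53 and 45, and the promoter count went from 14 and 18 members to 25 and 21.

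Of the 158 regions, 27 lay at the canonical promoter (1 kb upstream to 100 bp downstream of the Ensembl canonical start), 12 at another annotated start, 75 within the gene body and 44 in the flanks. Of the flank regions 12 sat at the promoter of another coding gene. Regions called in all 4 libraries numbered 49 (31.0%), against 20.4% of all regions of the series. Promoter regions were called in all libraries more often than internal ones, with 44.4% and 25.3%. By contrast, 49.3% of the internal regions but 14.8% of the promoter regions were called in 1 library alone. Such regions called in 1 library were weak, with a median normalised tag count of 8.51 against 24.7 for those called in all 4. These regions numbered 62 (39.2%), against 46.2% of the series. Of the 62, 12 belonged to a control library and 50 (80.6%) to a tazemetostat library, and the tazemetostat share over the series was 72.8%.

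Regions with a peak in each tazemetostat library but in no control (tazemetostat-only) numbered 13, or 8.23%, a share below the 13.7% of the series. They lay in the windows of 11 of the 33 genes (33.3%), near the 32.5% of all coding genes. The windows differed in length, with medians of 71.1 kb for the members and 47.5 kb for all coding genes. The reverse class, control-only, had 0 regions in the windows of 0 genes, where it made up 0.449% of the regions of the series and touched 1.35% of coding genes. A further 23 regions (14.6%) had both tazemetostat libraries and 1 control, against 13.2% of the series, and 0 had both controls and 1 tazemetostat library, against 0.883%. Of the tazemetostat-only regions 9 were in flanks, and 4 lay in gene bodies or at promoters. These 4 were the promoters of ARID1A and ARID1B, the BICRA intronic region and the KDM6B region that overlaps an exon. Only parts of the BICRA and KDM6B regions are shown above. The BICRA intronic region chr19:47660309-47660761 had tag counts of 12.6 and 12.8 in tazemetostat replicates 1 and 2. KDM6B had 24.7 and 26.0 at chr17:7844686-7845155. All 13 were modest by the authors' own filter, with a fold over the surrounding 10 kb of 4.06 to 6.75, where 4 was required. None of the 13 could reach a required fold of 8. The 2 regions counted as tazemetostat-only at that fold were the EP300 promoter and a BCL7A intronic region, which all libraries had without it. The 3 regions counted as control-only at that fold were the ACTL6A and SMARCA2 promoters and a PHF10 flank region. All libraries had these too without it. At the SMARCA2 promoter the fold was 18.91 and 8.59 in the controls and 4.97 and 7.2 under tazemetostat. When every library was cut to its 26133 highest peaks there were 6 tazemetostat-only and 2 control-only regions. The flank regions of SMARCC2 (MYL6) and DPF2 (TIGD3) were also promoters of those genes.

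At the canonical promoters, 14 and 18 members had a peak in control replicates 1 and 2, and 25 and 21 in tazemetostat replicates 1 and 2 (exact permutation p = 0.3333, two-sided). Where a promoter held more than 1 peak, as at ACTL6A, SMARCE1, PHF10 and SMARCC2, the tag counts of its peaks were added. Over all coding genes the shares were 35.0%, 41.7%, 52.2% and 49.4%. A promoter peak in all 4 libraries was found for 12 members (36.4%), against 31.5% of coding genes, and in none for 8 (24.2%), against 44.2%. Both tazemetostat libraries but fewer than 2 controls had a peak at 9 members (27.3%), against 15.4%, and the reverse pattern had 0 members, against 0.489%. The 13 partly called promoters lacked a peak 11 times in control replicate 1, 7 times in control replicate 2, 0 times in tazemetostat replicate 1 and 4 times in tazemetostat replicate 2. Control replicate 1 had the fewest mapped tags of the 4 libraries, and tazemetostat replicate 1 had fewer than control replicate 2. Over the whole series, 742864 and 1353842 tags lay in peaks in control replicates 1 and 2. In tazemetostat replicates 1 and 2 these were 2283279 and 2605603. The parts of depth and of the share of tags in peaks in these calls were not tested.

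**Figure D2:**
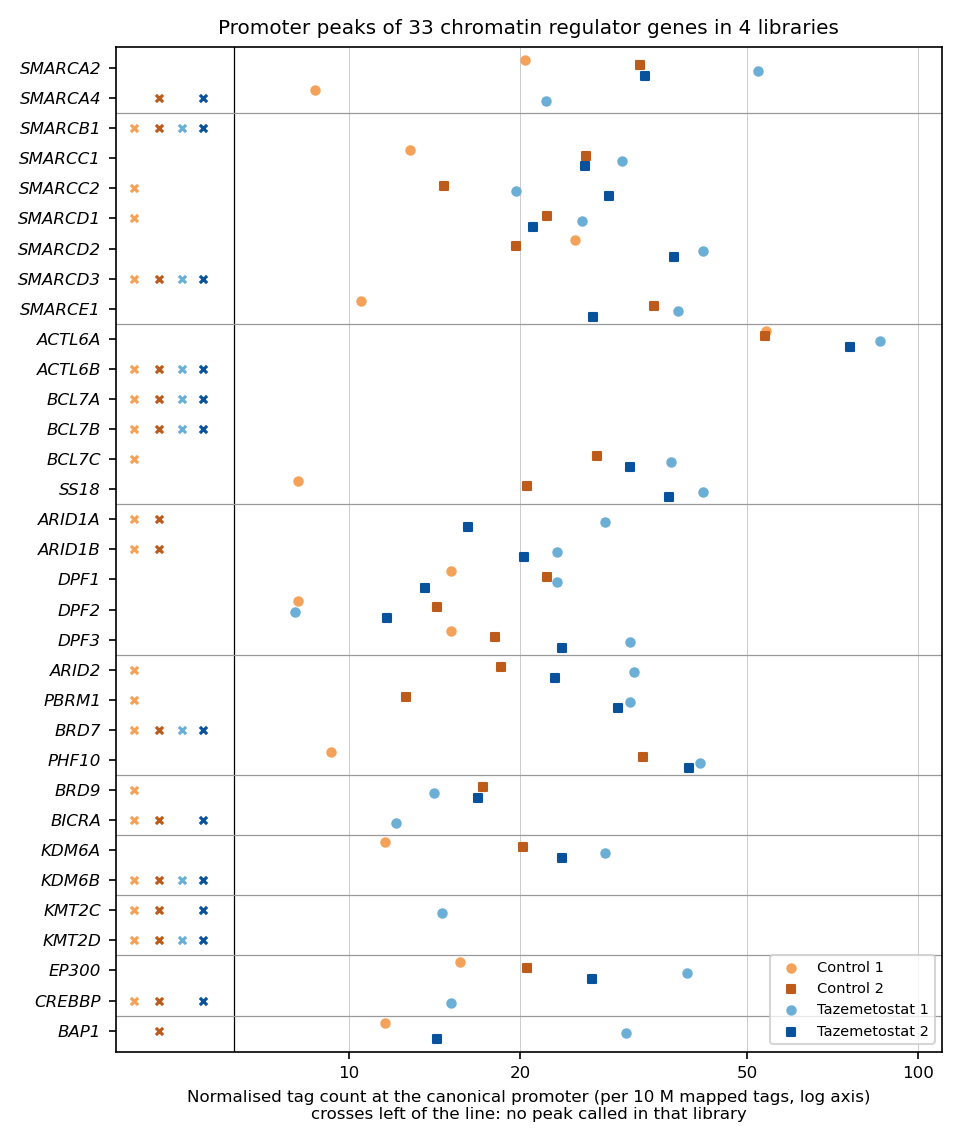
Normalised tag count (per 10 M mapped tags, log axis) at the canonical promoter of each of the 33 genes, grouped by role from the ATPases (top) to BAP1 (bottom). Circles and squares are replicates 1 and 2, orange for control and blue for tazemetostat; crosses left of the line mark libraries with no peak. ACTL6A lies farthest to the right in every library, and 8 genes show crosses for all libraries.

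In the ATPase group, the promoter of SMARCA2 (BRM) had tag counts of 20.4 and 32.4 in control replicates 1 and 2, and 52.4 and 33.1 in the tazemetostat replicates. The values did not overlap, but tazemetostat replicate 2 lay only just above control replicate 2. SMARCA4 (BRG1) was called in 1 replicate of each group, with 8.73 in control replicate 1 and 22.2 in tazemetostat replicate 1. SMARCA4 had 9 regions in its window, of which 1 intronic region was called in all 4 libraries, whereas SMARCA2 had 2.

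Among the core subunits, the scaffold genes SMARCC1 and SMARCC2 differed in their calls. SMARCC1 had 12.8, 26.1, 30.2 and 26.0 in control replicates 1 and 2 and tazemetostat replicates 1 and 2, with overlapping groups. SMARCC2 had no peak in control replicate 1, and 14.7, 19.7 and 28.6 in the others. The 28.6 of tazemetostat replicate 2 added 17.3 at the same region and 11.3 at a second region called in that library alone. SMARCD2, known for its part in myeloid differentiation, was higher in both tazemetostat libraries, with 25.0 and 19.7 against 41.8 and 37.3. SMARCD1 was not called in control replicate 1, and its 22.3 in control replicate 2 lay between 25.7 and 21.1 under tazemetostat. SMARCE1, which carries an HMG domain, had the widest control spread of the core, 10.5 and 34.4, beside overlapping tazemetostat values of 37.8 and 26.8. The SMARCE1 value was 1 peak in control replicate 1 and added 2 peaks in each other library. SMARCB1, which contacts the nucleosome, and SMARCD3, a subunit of heart and muscle, had no promoter peak in any library. SMARCD3 was the quietest of the core genes, with 1 region in its window, in the flank and in tazemetostat replicate 1 alone.

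The ATPase module held the strongest promoter. ACTL6A, the actin-related subunit of dividing cells, had 54.1 and 53.8 in the controls and 85.7 and 75.7 under tazemetostat, with means of 53.95 ± 0.212 and 80.7 ± 7.07 (SD, n = 2 each). Each tazemetostat value added 2 peaks and each control value was 1 peak, so limma did not test the ACTL6A promoter. The highest fold over the surrounding 10 kb at ACTL6A was 11.38 and 16.03 in the controls and 6.05 and 7.2 under tazemetostat. The neuronal counterpart of ACTL6A, ACTL6B, had no promoter peak in any library. SS18, shared by BAF and non-canonical BAF, had 8.14 and 20.6 in the controls and 41.8 and 36.5 under tazemetostat, the largest ratio of group means of the 12 promoters called everywhere, at 2.72. BCL7C was called in all libraries but control replicate 1, with 27.3, 36.8 and 31.2. BCL7A and BCL7B had no peak at the canonical start. For BCL7B the open site lay 474 bp inside the gene at another annotated start, with 18 and 15.5 in the controls and 36.8 and 31.2 under tazemetostat.

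In canonical BAF, ARID1A and ARID1B were the 2 members (6.06%) with a promoter peak in each treated library and in no control, a pattern of 5.48% of all coding genes. ARID1A had 28.2 and 16.2, and ARID1B had 23.2 and 20.3. At another annotated start of ARID1A, centred -2863 bp from the canonical one, all libraries had a peak, with 29.7 and 22.3 in the controls and 30.2 and 30.9 under tazemetostat. The controls were therefore open near ARID1A, though not within the promoter window. Of the DPF subunits, which bind histone tails through PHD fingers, DPF3 was higher in both tazemetostat libraries, with 15.1 and 18.1 against 31.2 and 23.7. DPF1 had 15.1 and 22.3 against 23.2 and 13.6. DPF2, the broadly expressed form, had the lowest promoter of those called in all libraries, with 8.14 and 14.3 in the controls and 8.06 and 11.7 under tazemetostat. Both DPF1 and DPF2 had overlapping groups.

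Among PBAF subunits, PHF10 had 9.31 and 32.8 in the controls, against 41.4 and 39.5 in the treated libraries, with the wider spread in the controls. These were sums over 2 promoter regions, the second of which had no peak in control replicate 1. At the region called in all libraries, the values were 9.31 and 18.5 against 21.7 and 24.1. ARID2 had no peak in control replicate 1, and 18.5 in control replicate 2 against 31.7 and 23. PBRM1, the bromodomain-rich subunit, likewise lacked control replicate 1 and had 12.6 against 31.2 and 29.7; its promoter is shared with GNL3. BRD7 had no promoter peak in any library. Its window held 2 regions, neither of them called in control replicate 1. For non-canonical BAF, BRD9 had no peak in control replicate 1, and 17.2 in control replicate 2 was above both tazemetostat values, 14.1 and 16.9. The BRD9 promoter region also overlapped the promoter of TRIP13. BICRA was called at the promoter in tazemetostat replicate 1 alone, with 12.1.

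The H3K27 demethylases differed in where they were open. KDM6A (UTX) was called at the promoter in all libraries, with 11.6 and 20.2 in the controls and 28.2 and 23.7 under tazemetostat. KDM6B (JMJD3) had no peak at the canonical start in any library, and its gene body held the tazemetostat-only region at exon 3 and no other, 10703 bp from that start. The H3K4 methylases had the fewest promoter calls, KMT2C with 14.6 in tazemetostat replicate 1 alone and KMT2D with none. KMT2D instead had a region at another annotated start, 4616 bp inside the gene, called in 3 libraries with 12.2 in control replicate 1 and 15.6 and 13.9 under tazemetostat. The acetyltransferases split as well: EP300 was called in all libraries with 15.7 and 20.6 against 39.3 and 26.7, whereas CREBBP had 15.1 in tazemetostat replicate 1 alone. The EP300 region was centred at -960 bp from the start, at the edge of the promoter window. BAP1 had 11.6 in control replicate 1, no peak in control replicate 2, and 30.7 and 14.3 under tazemetostat. That region also overlapped the promoter of PHF7.

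Over the 12 promoters called everywhere, the median tag count per library was 13.95 and 20.6 in the controls and 34.5 and 26.4 under tazemetostat, with means of 17.3 ± 4.70 and 30.4 ± 5.76 (SD, n = 2 each). Over the 19 internal regions called in all libraries, the medians were 12.8 and 17.2 against 25.2 and 24.5, with means of 15.0 ± 3.11 and 24.9 ± 0.495 (SD, n = 2 each). Both differences had the smallest exact permutation p of 0.3333, two-sided. The ratios of group means were 1.76 and 1.66. The promoter difference of 13.15 was 7.78 without tazemetostat replicate 1 (exact permutation p = 0.6667) and 8.3 without control replicate 1, and the internal difference of 9.85 was 5.1 without control replicate 1. After centring each library on its median, the promoter difference was 0.56 and the internal one -0.69 (exact permutation p = 0.6667 for both). Both tazemetostat values lay above both control values at 8 of the 12 promoters, a separation found at 81.6% of the 15383 regions of the series that had exactly 1 peak in every library.

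A peak was listed only where it also stood out from the surrounding 10 kb, so a missing peak at these genes does not give a tag count. At the 13 partly called promoters, the 30 called values had a local fold of 4.01 to 10.78 with a median of 4.90, and 2 of them exceeded 6.5. At the 12 promoters called everywhere, the local fold ran from 4.10 to 18.98 with a median of 5.99. Most partly called promoters thus lay close to the required fold of 4, CREBBP being nearest with 4.01 in tazemetostat replicate 1. PBRM1 was the exception, with 10.78 in control replicate 2 although control replicate 1 had no peak.

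**Figure D3:**
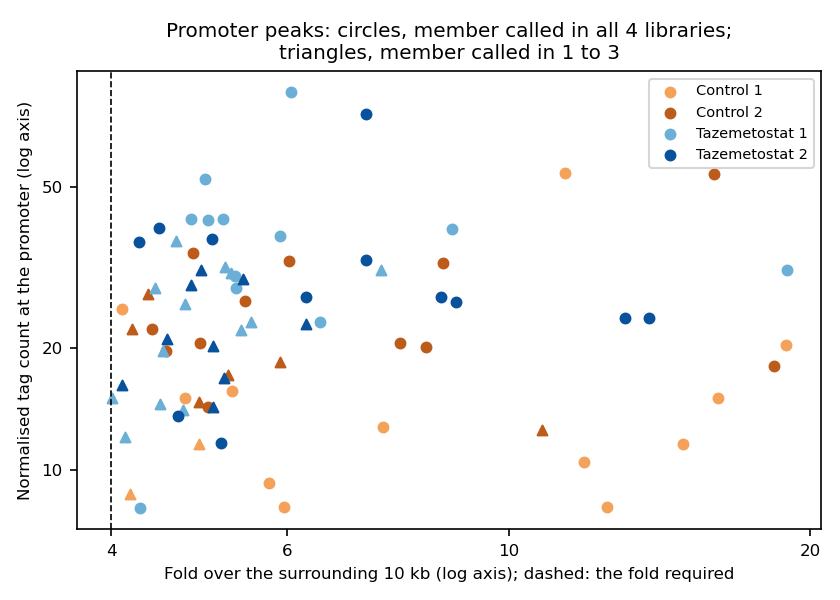
Local fold over the surrounding 10 kb (log axis) against normalised tag count (log axis) for each called promoter peak, coloured by library; circles are members called in all 4 libraries and triangles those called in 1 to 3, with the required fold of 4 dashed. The triangles crowd between 4.01 and 6.26 apart from the 2 highest PBRM1 values.

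To compare accessibility where all libraries gave a value, limma was run on log2(normalised tag count + 1) over the 15383 regions with exactly 1 peak in every library, 46 of them in the windows of these genes. Of the 46, 17 (37.0%) were higher under tazemetostat and 1 (2.17%) was lower at an adjusted p of 0.05, against 42.7% and 0.247% of all regions tested. Both tazemetostat values lay above both control values at 40 of the 46 (87.0%), against 81.6%. The median log2 change was 0.69 over the members' regions and 0.70 over all regions. Without control replicate 1 the members' median was 0.42, and without control replicate 2 it was 0.76. These directions rest on the scaling to mapped tags: centring each library on its median over all tested regions took 0.76 off every log2 change, left 0 calls in either direction (2 higher and 4 lower regions had an unadjusted p under 0.05), and set the members' median to -0.070. The 17 higher regions were the ones above the shift. By place, 3 of 10 promoter, 1 of 4 other start, 8 of 19 internal and 5 of 13 flank regions were higher, with median log2 changes of 0.70, 0.36, 0.69 and 0.70. Without control replicate 1 there were 6 higher regions and without control replicate 2 there were 26; without either tazemetostat replicate there were 0, as in the whole series, where the smallest adjusted p was 0.232 without tazemetostat replicate 1 and 0.0976 without tazemetostat replicate 2.

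**Figure D4:**
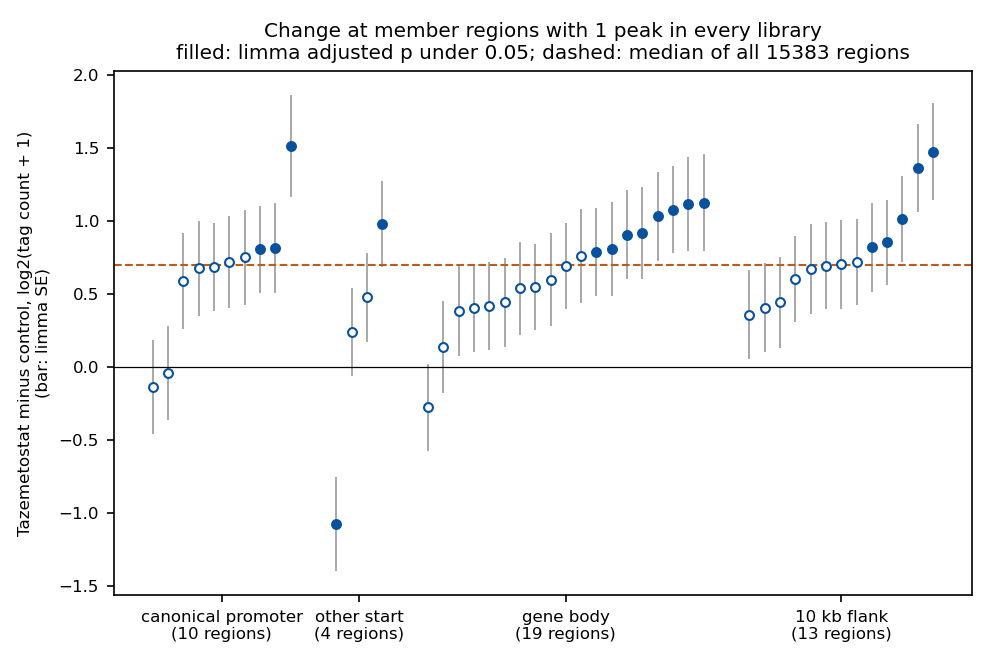
Log2 change (tazemetostat minus control, log2(normalised tag count + 1)) of the 46 regions tested, sorted within each place; points are limma estimates, bars the standard error, filled points an adjusted p under 0.05, and the dashed line the median of all 15383 regions, 0.70. Most points lie around the dashed line, SS18 tops the promoters at 1.51 and the ARID1B repeat lies lowest at -1.08; centring on the series median moves all points down by 0.76.

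The regions that rose were spread over 11 genes. SS18 had the largest increase of all, 1.51 ± 0.35 (SE) at the promoter (limma, adjusted p = 0.00866). Without control replicate 1, the lower of its controls, it was 0.89 (adjusted p = 0.0781), and per kb of peak it was 0.47 (adjusted p = 0.0742). The SS18 peak spanned 377 and 702 bp in the controls and 1054 and 1158 bp under tazemetostat. Its fold over the surrounding 10 kb was 12.52 and 7.78 in the controls, and lower, 4.81 and 4.27, under tazemetostat. The other promoters that rose were SMARCD2 by 0.80 ± 0.30 (adjusted p = 0.0382) and EP300 by 0.81 ± 0.31 (adjusted p = 0.0411). Without control replicate 1 these adjusted p-values were 0.0560 and 0.206, and SMARCD2 had 0.0987 without control replicate 2. Per kb of peak SMARCD2 was 0.43 (adjusted p = 0.102). The BCL7B start inside the gene rose by 0.98 ± 0.30 (adjusted p = 0.0193), and without control replicate 1 or 2 its adjusted p was 0.0329 and 0.0263. DPF2 and DPF1 were at the other end, with -0.14 ± 0.32 and -0.043 ± 0.32 and adjusted p-values of 0.696 and 0.906.

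By role, the H3K27 demethylases had 3 of 4 regions higher with a median log2 change of 1.04, and non-canonical BAF 3 of 4 with 0.83, all 3 of them at BICRA. The core subunits had 3 of 5, the ATPase module 3 of 8, canonical BAF 4 of 15 and the acetyltransferases 1 of 1. Over all regions tested, 42.7% were higher. The higher regions of KDM6B and SMARCC1, and part of those of BICRA and SMARCD2, lay in the flanks and not in the gene. The ATPases (2 regions), PBAF subunits (4 regions) and H3K4 methylases (3 regions) had 0 called by limma, with 0.40, 0.66 and 0.44 as medians. After centring, the medians of these groups, of canonical BAF (0.54) and of the ATPase module (0.73) were below 0, since they were under the shift of 0.76, while those of the other roles stayed above it. BAP1 had no region with a peak in every library.

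Within gene bodies, the largest increases were in introns of DPF3, ARID1B and KDM6A. At DPF3 chr14:72776695-72777371, 8.14 and 15.1 in the controls stood against 32.3 and 20, a log2 change of 1.12 ± 0.33 (limma, adjusted p = 0.0180). At KDM6A chrX:44915385-44915938, which is 42473 bp from the start, 9.31 and 12.2 stood against 22.7 and 24.5, a log2 change of 1.08 ± 0.30 (adjusted p = 0.0146). The groups did not overlap at either site. Without control replicate 1 the adjusted p-values were 0.152 and 0.0761. The smallest values among the tested internal regions were at SMARCC1, with 11.6 and 10.5 against 7.56 and 10.5 (log2 change -0.28 ± 0.30, adjusted p = 0.406), at SMARCA4, with 12.8 and 16.8 against 12.6 and 20.7 (0.13 ± 0.32, adjusted p = 0.706), and at ARID1A, with 11.1 and 17.2 against 18.6 and 18.1 (0.38 ± 0.31, adjusted p = 0.269). Per kb of peak the SMARCA4 and ARID1A changes were -0.012 and -0.11.

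The highest internal tag counts were at BCL7C and DPF3. BCL7C chr16:30844504-30845505 had 17.5 and 26.5 in the controls and 49.4 and 35.0 under tazemetostat, and rose by 0.92 ± 0.31 (limma, adjusted p = 0.0291; 0.204 without control replicate 1). A second BCL7C site at chr16:30875044-30875698 had 15.7 and 26.9 against 42.8 and 29.4, with 0.76 ± 0.32 (adjusted p = 0.0596), and DPF3 chr14:72781741-72782385 had 22.7 and 25.2 against 33.8 and 36.9, with 0.54 ± 0.29 (adjusted p = 0.118). BICRA had introns open in all libraries, where chr19:47623895-47624812 had 18 and 18.1 against 46.4 and 30.9, a log2 change of 1.03 ± 0.31 (adjusted p = 0.0180), which was 0.0432 and 0.0105 without control replicate 1 or 2. Per kb of peak the BICRA change was 0.31 (adjusted p = 0.236).

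In the flanks, the largest increases were at promoters of neighbouring genes and not of the members. Beside KDM6B, chr17:7856969-7857891 at the promoters of CYB5D1 and NAA38 had 15.7 and 32.4 against 66.0 and 63.2, a log2 change of 1.47 ± 0.33 (limma, adjusted p = 0.00778). Beside SMARCD2, chr17:63826895-63827856 at the promoters of FTSJ3 and PSMC5 had 22.7 and 29.8 against 69.5 and 67.4, a log2 change of 1.36 ± 0.30 (adjusted p = 0.00722). Without control replicate 1 these adjusted p-values were 0.0547 and 0.0208. Per kb of peak these were 0.48 and 0.45, with adjusted p-values of 0.0733 and 0.0852. The second higher flank region beside KDM6B, chr17:7862917-7863515, overlapped NAA38 but no promoter of another coding gene, with 9.31 and 8.82 against 20.2 and 18.4 (1.01 ± 0.29, adjusted p = 0.0169; 0.28 per kb of peak, adjusted p = 0.279).

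ARID1B, the longest member at 434.8 kb, had 19 regions, more than any other member, and gave 3 of the 17 increases and the only decrease. Its internal regions numbered 16, of which 7 were called in 1 library alone. The strongest site was another annotated start 244379 bp into the gene, with 38.99 and 33.2 in the controls and 64.0 and 52.7 under tazemetostat. The internal region chr6:157177676-157178245 had 11.6 and 21.8 against 35.3 and 36.1, a log2 change of 1.11 ± 0.32 (limma, adjusted p = 0.0162; 0.168 without control replicate 1), which per kb of peak was 0.43 (adjusted p = 0.106). The other increases were weaker sites. At chr6:156953525-156953987, 8.73 and 7.98 stood against 12.6 and 18.1, a log2 change of 0.79 ± 0.30 (adjusted p = 0.0431; 0.0952 and 0.0632 without control replicate 1 or 2), which per kb of peak was 0.37 (adjusted p = 0.157). At chr6:156991996-156992428, 9.31 and 6.72 stood against 13.6 and 18.1, a log2 change of 0.90 ± 0.31 (adjusted p = 0.0278; 0.0744 without control replicate 2). Between these sites, chr6:157147152-157147926 had 37.2 and 43.7 in the controls and 25.2 and 13.6 under tazemetostat. Both tazemetostat values lay below both control values there, as at 1.75% of the tested regions of the series, and the log2 change was -1.08 ± 0.32 (adjusted p = 0.0182). Per kb of peak it was -0.73 (adjusted p = 0.00949), and after centring -1.84 (adjusted p = 0.136). Without tazemetostat replicate 1 or 2 it was -1.50 and -0.66, with adjusted p-values of 0.232 and 0.203. This is the region whose sequence repeats every 32 bases; how tags that match several copies were placed is not given in the sources used here, and the part of that in the decrease was not tested.

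**Figure D5:**
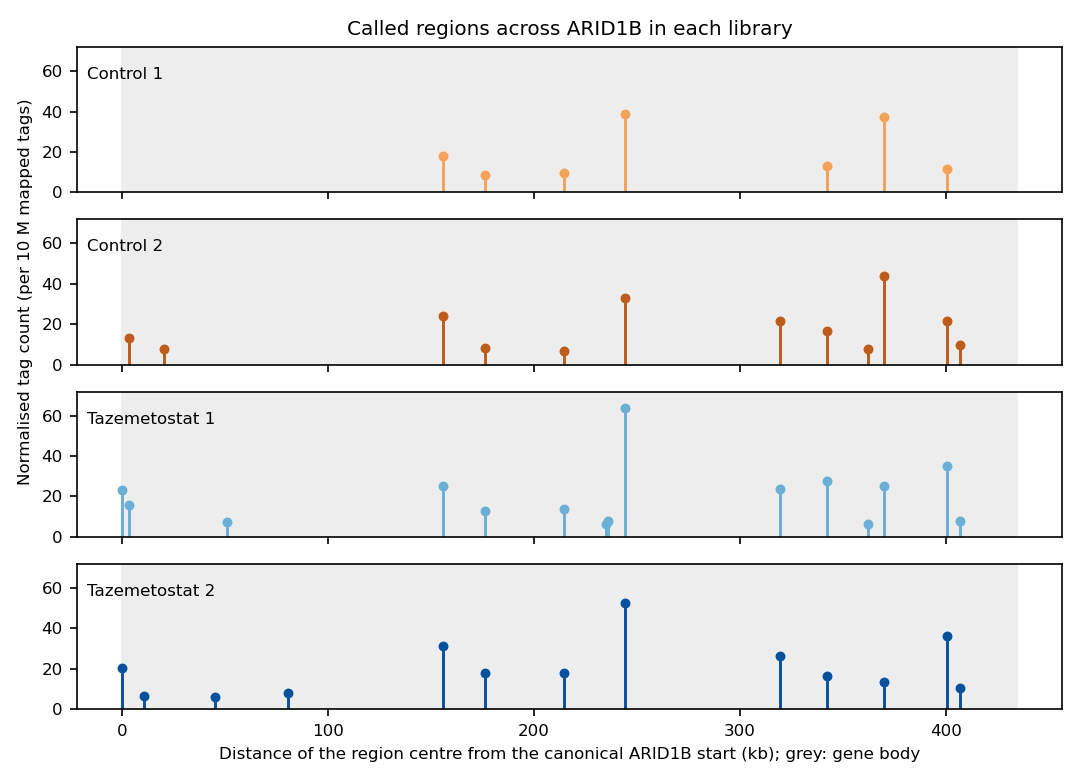
Normalised tag count (per 10 M mapped tags) of each called region across ARID1B, by distance of its centre from the canonical start (kb), with 1 panel per library and the gene body in grey. The promoter stem at 0 kb is present in the tazemetostat panels alone, and the stem of the repeat, 370161 bp into the gene, at 37.2 and 43.7 in the controls, is lower under tazemetostat at 25.2 and 13.6.

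The gene body of KMT2C, 301.7 kb long, had 9 internal regions, of which 1 was called in all libraries, with 9.31 and 6.72 in the controls and 9.57 and 16.2 under tazemetostat (limma log2 change 0.60 ± 0.32, adjusted p = 0.113). Of the 9, 5 were called in 1 library. CREBBP had 1 internal region, called in 3 libraries with 11.3 in control replicate 2 and 15.6 and 20.3 under tazemetostat, and EP300 had 3, none of them called in all libraries.

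Promoters of these genes were rich in CpG sites. The 300 bases before the canonical start held a median of 33 CpG sites over the 33 members, against 21 over all coding genes. The 12 members called everywhere had a median of 30.5, the 13 partly called members 38, and the 8 without a peak 25. CpG content thus did not follow the number of libraries with a peak in 1 direction.

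Other genes of the same complexes, 21 in number, were compared by counts. These were the SWI/SNF genes BICRAL, SS18L1 and ACTB, the partners of the H3K4 methylases (KMT2A, KMT2B, WDR5, RBBP5, ASH2L, DPY30, NCOA6, PAXIP1 and PAGR1) and those of BAP1 (ASXL1, ASXL2, ASXL3, FOXK1, FOXK2, HCFC1, OGT, MBD5 and MBD6). Their promoters were called in 10 and 12 genes in the controls and in 13 and 12 under tazemetostat, beside 14, 18, 25 and 21 of the 33 members; the difference was not tested. By share these were 47.6% and 57.1% in control replicates 1 and 2, and 61.9% and 57.1% in tazemetostat replicates 1 and 2. Over all coding genes the shares were 35.0%, 41.7%, 52.2% and 49.4%. All libraries had a promoter peak at 8 of the 21 genes (38.1%), against 31.5% of coding genes. No library had one at 7 (33.3%), against 44.2%. Tazemetostat-only regions lay in the windows of 15 of the 21 genes (71.4%), against 33.3% of the members and 32.5% of coding genes. By region they were 19 of 116, beside 13 of 158 for the members and 11044 of 80551 (13.7%) for the series. Control-only regions lay in the windows of 3 of the 21 genes (14.3%), against 1.35% of coding genes. The median windows of these sets were 79.4, 71.1 and 47.5 kb, and the part of window length was not tested. Of the 26 regions of the 21 genes tested in limma 1 was higher (3.85%) and 0 were lower, with a median log2 change of 0.60, against 42.7% and 0.70 over all regions.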

How the data were processed

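ATAC-seq libraries of HepG2 cells, 2 control and 2 tazemetostat, were grouped by their titles. Trimming by the authors used Trim Galore 0.6.6, alignment to hg38 used Bowtie2 2.3.5.1, and HOMER 4.11.1 called peaks library by library, as the submitters' processing notes and the study's methods state. The deposited signal is the normalised tag count, which gives tags of a peak per 10 M mapped tags. The deposited score is HOMER's peak score and was not used. The deposited fold over the surrounding 10 kb is a ratio that had to reach 4 with a p-value of 0.0001, per the file headers; the fold was used here to describe and filter peaks, the p-value was not used. Fragment length was set to 200 bp in both control headers and to 144 bp in both tazemetostat headers, a difference that cannot be told apart from treatment. A shift of tags for the transposase is not given in the sources used here.

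Peaks overlapping by at least 1 bp were merged. The 281 sequence names of the lists were all found in the hg38 reference, and no peak on the 24 primary chromosomes ran past its end. Members were matched by symbol in GENCODE 44; a region's place was set by the canonical transcript. Sequences were read from the hg38 reference, leaving out annotated UTRs. Values per library were set against each other by exact permutation, and tag counts by limma 3.58.1 (R 4.3.3) on log2(normalised tag count + 1), with Benjamini-Hochberg adjustment over 15383 regions; low tag counts change less on that scale. Places without a peak have no value, and the lowest values listed were 6.4, 5.04, 5.04 and 4.89. The merging, placing and limma steps were tested on simulated data. There limma recovered 64.0% of 3-fold changes, with 3.76% false among its calls. A shift shared by most regions was not simulated.

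The members, gene lists and motifs were chosen with earlier results of these data known, and the AP-1, HNF4 and FOXA motifs after the tag counts were seen. Named with values were members lacking a promoter peak in at least 1 library, the highest and lowest promoter of each role, regions within gene bodies called in 1 group alone, and the 3 largest, 3 smallest and 3 highest internal regions tested; the other regions named were chosen after their values were seen. Alternatives were a local fold of 8, an equal number of peaks, gene bodies without flanks, a 50% overlap, tag count per kb, median centring, other pseudocounts, a tag count filter, a replicate block, each library left out, and, added after the data were seen, any annotated start as promoter. Some of the cell type markers checked are not reported here.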

Additional observations from a re-analysis of the deposited data

How the results depend on the processing

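With 2 libraries per group, no test of a library value could go below 0.3333, and a missing peak has no tag count. The differences in called peaks (44.5), summed tag count (1262) and promoter median (13.15) kept their direction under the alternatives run, but not their size. Called peaks differed by 4.0 with equal peak numbers and by 2.0 at a local fold of 8, summed tag count by 84.5 at a local fold of 8, and the promoter median by 0.56 after centring, each at p = 0.6667 in the exact permutation test except the first (0.3333). With 1 library left out they ran from 38.5 to 50.5, 1030 to 1494 and 7.78 to 15.8. Internally, median centring turned the difference of medians from 9.85 to -0.69. Of the regions in the windows, tazemetostat-only ones numbered 13 in 11 genes. The count was 2 in 2 genes at a local fold of 8, neither of them among the 13. It was 6 in 6 genes with equal peak numbers and 4 in 4 genes without flanks. Control-only regions numbered 3, 2 and 0 in these settings. Leaving out 1 library at a time relaxes both classes, giving 19 to 40 tazemetostat-only regions in 15 to 25 genes and 0 to 6 control-only regions.

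The higher regions in limma numbered 17 as reported, 5 at a local fold of 8 (7 regions tested), 8 per kb of peak, 0 after median centring, and 0 to 26 with 1 library left out. Lower regions numbered 1, 0 at a local fold of 8, 0 after centring, and 0 to 1 with 1 library left out. The median log2 change was 0.69, 0.37 per kb of peak, -0.070 after centring, and 0.42 (without control replicate 1) to 0.76 with 1 library left out. Centring reversed the SMARCA4 (-0.63), ARID1A (-0.38), DPF3 (-0.22) and BCL7C (-0.0026) internal regions and the SMARCA2 (-0.086), SMARCC1 (-0.17), DPF3 (-0.075), PHF10 (-0.0087) and KDM6A (-0.044) promoters, by construction, since it takes 0.76 off each. Per kb of peak, the SMARCA4 (-0.012) and ARID1A (-0.11) internal regions and the DPF1 promoter (0.33) reversed. Leaving out 1 library moved SMARCA4 from -0.20 to 0.47, the DPF2 promoter from -0.51 to 0.23 and the DPF1 promoter from -0.41 to 0.32, all uncalled; other causes were not tested.

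The replicate block gave 12 higher and 1 lower region. Of the regions named, the promoters of SMARCD2 and EP300 and the ARID1B region at 156953525 were no longer called under the block, with adjusted p-values of 0.0610, 0.0580 and 0.0655 in limma. The labels do not say that equal replicate numbers mark a shared batch, and the deviations of the same numbers had r = -0.0025 across 15383 regions, so the numbers were taken as names. The count-model alternatives (edgeR and DESeq2) were not run.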
